A study of Sus scrofa with 30 samples.

Results

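The 8 genes described here make, carry or break down vitamin C (ascorbate) and inositol in the pig embryo: UGDH, RGN and GULO of the ascorbate synthesis route, the ascorbate carriers SLC23A1 and SLC23A2, and ISYNA1, IMPA1 and MIOX of inositol metabolism. They were chosen by symbol with their levels over the days known, and all 8 were present among the 13103 genes counted over the whole experiment. The libraries came from 30 single embryos, 10 on each of Days 8, 10 and 12 after insemination, of which 5 were female and 5 male. The dams were crossbred gilts (German Landrace × Pietrain) whose cycles had been synchronized with altrenogest and gonadotropins, and 1 Pietrain boar sired all embryos. The embryos were flushed from 4 gilts per day and were used whole, so that each library holds the embryonic disc together with the trophectoderm. The days differed in no other treatment. Because the sample labels do not name the dam of an embryo, littermates may not be independent, and the p-values below measure only the spread between these embryos. Each day had its own gilts, so differences between days and between dams cannot be told apart here.

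Ascorbate is made from glucose by way of glucuronate. UGDH oxidises UDP-glucose to UDP-glucuronate, RGN (regucalcin) is the lactonase that closes gulonolactone, and GULO (L-gulonolactone oxidase) carries out the last step, which primates and guinea pigs have lost and the pig has kept. Cells can also import ascorbate through the sodium-dependent carriers SLC23A1, best known from epithelia, and SLC23A2, found in most tissues. Inositol is made from glucose 6-phosphate by ISYNA1 (inositol-3-phosphate synthase) and released as free inositol by IMPA1 (inositol monophosphatase), while MIOX (inositol oxygenase) opens the inositol ring to glucuronate and so joins both routes.

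On Sscrofa11.1, UGDH lies at chr8:30725281-30759359, RGN at chrX:41725660-41749736 and GULO at chr14:11299858-11332892. The carriers lie at chr2:141258318-141277555 (SLC23A1) and chr17:13848726-14012054 (SLC23A2). The inositol genes lie at chr2:59363672-59367003 (ISYNA1), chr4:54935838-54968672 (IMPA1) and chr5:249312-251547 (MIOX). ISYNA1 is annotated there as a long non-coding RNA and the other 7 genes as protein-coding. The SLC23A1 locus shares 1890 bases with PAIP2, 635 bases with the long non-coding RNA LOC110259503 and 15 bases with MZB1. The SLC23A2 locus shares 4198 bases with the pseudogene LOC110257433. Neither LOC110259503 nor LOC110257433 was among the counted genes. UGDH shares 227 bases and IMPA1 4 bases with other genes. Whether the counting used strand is not stated, so reads of the shared stretches cannot be assigned with certainty.

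Total counts per embryo ran from 6068212 to 34002508, with a median of 22202723. Levels are CPM (counts scaled to a common library size with trimmed mean of M values, TMM, factors), and 3 counts, the floor used here, correspond to between 0.0823 and 0.434 CPM. Transcript lengths were not used, so levels are compared between embryos and days within a gene and not between genes. Markers of the trophectoderm were present in every embryo, KRT8 averaging 12200, 24500 and 10200 CPM on Days 8, 10 and 12, and none of 4 leukocyte markers was among the counted genes. Epiblast markers were mixed. POU5F1 averaged 30.9, 14.4 and 1.72 CPM and SOX2 had no count in 8 of 10 Day 12 embryos, LIN28A averaged 121, 119 and 48.5 CPM, and DPPA5 averaged 3.87, 187 and 511 CPM. In such whole-embryo libraries fewer cells of a type and less RNA per cell cannot be told apart.

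**Figure D1:**
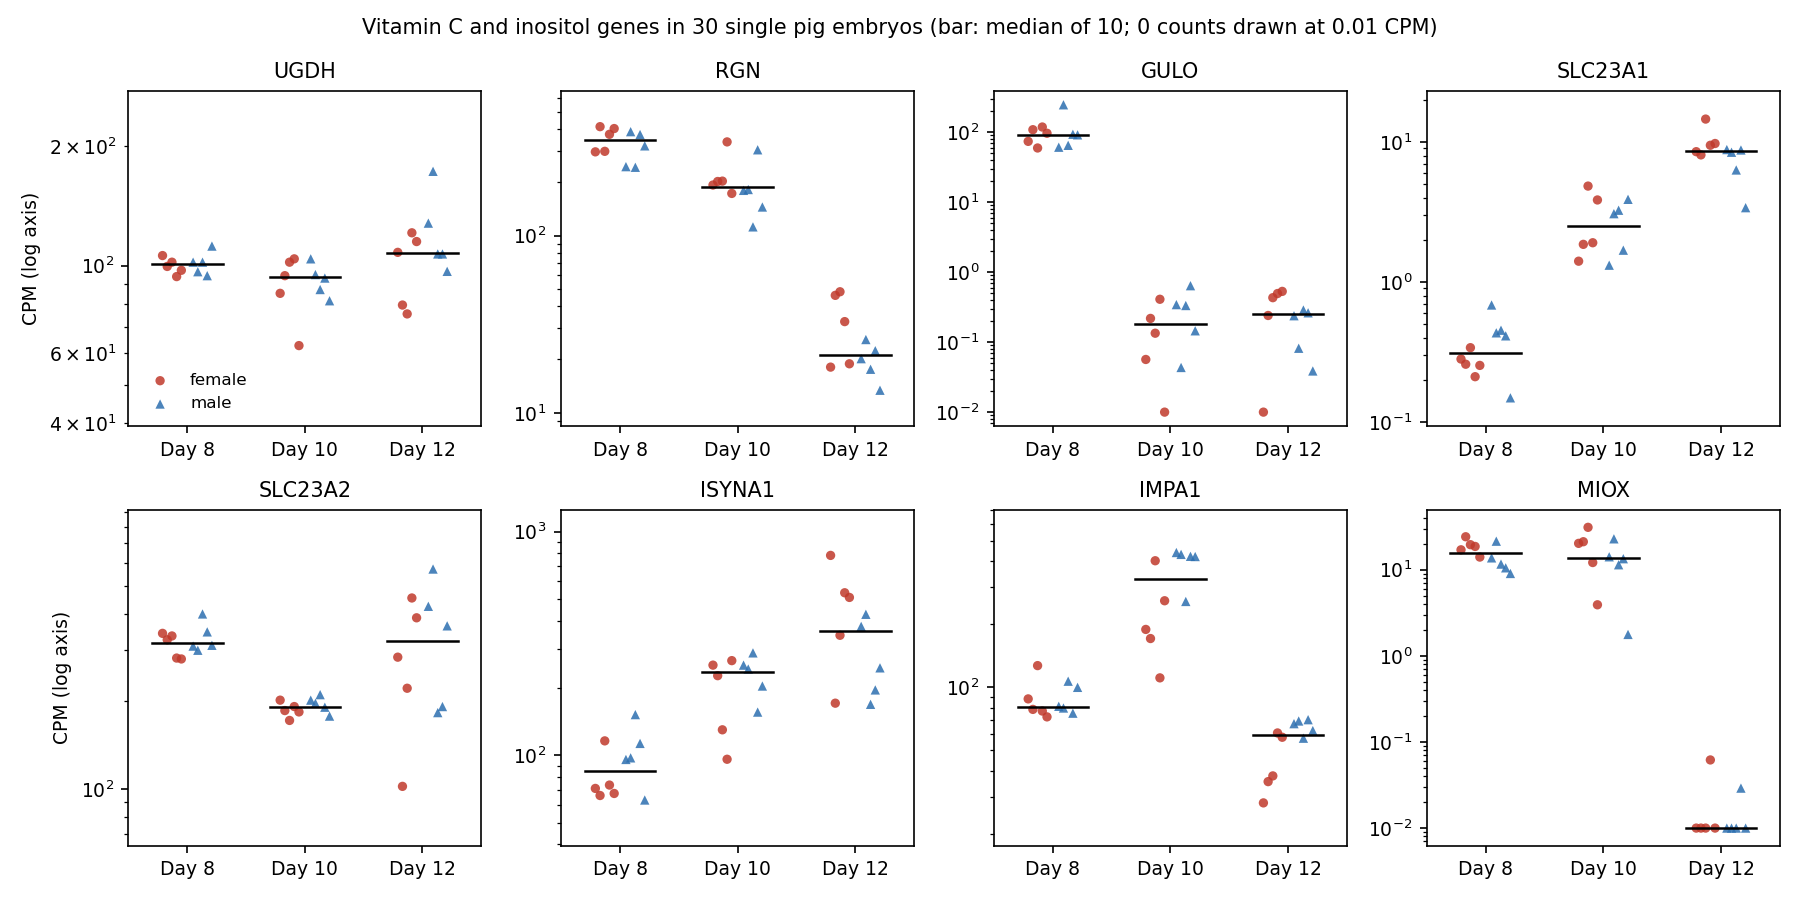
CPM (log axis) of the 8 genes in each of 30 embryos by day, with female embryos as circles, male embryos as triangles, and a bar at the median of 10 embryos. Embryos without a count are drawn at 0.01 CPM. GULO ran from 59.2 to 245 CPM on Day 8 and stayed at or below 0.639 CPM afterwards, MIOX had 3 counts in all on Day 12, and SLC23A1 was higher on each later day.

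GULO was present in every Day 8 embryo and held at most 16 counts in every later one. The Day 8 level was 59.2 CPM at the lowest, 92.0 CPM at the median and 245 CPM at the highest, with a mean of 101 ± 54.6 CPM (SD, n = 10). On Day 10 it ran from 0 through a median of 0.181 to 0.639 CPM (mean 0.232 ± 0.199, SD, n = 10), and on Day 12 from 0 through 0.251 to 0.53 CPM (mean 0.26 ± 0.185, SD, n = 10). The lowest Day 8 embryo thus stood far above the highest later embryo, and Days 10 and 12 overlapped. In raw numbers, 22987 counts were assigned to GULO over the Day 8 embryos, 52 over the Day 10 embryos and 61 over the Day 12 embryos. At most 3 counts were found in 4 Day 10 embryos and in 3 Day 12 embryos. The mean level was 435-fold lower on Day 10 than on Day 8 (fitted log2 fold change -8.71, SE 0.39), and the change from Day 10 to Day 12 was 0.21 (SE 0.5). Because this pattern was the reason for choosing the gene, no p-value is given for it.

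A single embryo accounted for much of the Day 8 spread in GULO. The male embryo d08_m_111 held 245 CPM, the next embryo 118 CPM, and without d08_m_111 the mean of the other 9 embryos was 84.9 ± 21.3 CPM (SD). For RGN, 386 CPM in d08_m_111 was within the range of its day.

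RGN, the step before GULO, fell later and remained detectable in every embryo. Its level was 243, 346 and 412 CPM (lowest, median and highest) on Day 8, 112, 188 and 338 CPM on Day 10, and 13.4, 21.3 and 48.2 CPM on Day 12. Days 8 and 10 overlapped, whereas every Day 12 embryo was below every earlier embryo. The means were 335 ± 62.8, 203 ± 68.5 and 26.3 ± 12.1 CPM (SD, n = 10 each), with a log2 fold change of -0.72 (SE 0.2) to Day 10 and of -2.95 (SE 0.22) from Day 10 to Day 12. The difference in timing can be seen in the counts of both genes within an embryo. For every 1000 RGN counts there were 255 GULO counts at the median on Day 8 (range 198 to 635), 1.04 on Day 10 (0 to 2.98) and 10.3 on Day 12 (0 to 28.0). The higher ratio on Day 12 than on Day 10 came with the lower RGN, the GULO levels of these days overlapping.

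UGDH, which supplies UDP-glucuronate for matrix polysaccharides as well as for this route, varied little. It ran from 93.8 through 101 to 112 CPM on Day 8, from 62.8 through 93.6 to 104 CPM on Day 10, and from 75.5 through 107 to 173 CPM on Day 12. All 3 days overlapped, and the log2 fold changes were -0.14 (SE 0.11) and 0.29 (SE 0.11). Its spread widened, the SD being 5.46, 12.6 and 27.4 CPM on Days 8, 10 and 12.

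The carriers moved in opposite directions from Day 8 to Day 10 and were both higher at the mean on Day 12 than on Day 10. SLC23A2 was measured at 280, 319 and 400 CPM (lowest, median and highest) on Day 8, 172, 192 and 211 CPM on Day 10, and 102, 324 and 571 CPM on Day 12. All Day 10 embryos were below all Day 8 embryos, and the Day 12 embryos spread over both sides of them. The log2 fold change was -0.76 (SE 0.18) to Day 10 and 0.73 (SE 0.18) from Day 10 to Day 12, leaving -0.02 (SE 0.18) between Days 8 and 12. The SD of SLC23A2 was 12.0 CPM on Day 10 and 146 CPM on Day 12, where the female embryo d12_f_271 had the lowest and the male embryo d12_m_275 the highest level.

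SLC23A1 was the scarcer carrier in counts and was higher on each later day. On Day 8 it ran from 0.149 through 0.311 to 0.686 CPM, with 85 counts over 10 embryos, so that single values rest on 4 to 25 counts. It then ran from 1.32 through 2.5 to 4.85 CPM on Day 10 and from 3.4 through 8.66 to 14.6 CPM on Day 12. Every Day 10 embryo was above every Day 8 embryo, and Days 10 and 12 overlapped. The log2 fold change was 2.92 (SE 0.29) to Day 10 and 1.66 (SE 0.25) from Day 10 to Day 12, and the mean was 24.8-fold higher on Day 12 than on Day 8. Of the genes whose loci overlap it, PAIP2 averaged 57.5, 64.1 and 74.4 CPM and MZB1 0.0522, 1.14 and 18.9 CPM on Days 8, 10 and 12. PAIP2, which shares 1890 bases with SLC23A1, and MZB1, which shares 15 bases, were thus also higher at the mean on each later day. The part of either gene in the SLC23A1 counts was not tested. Of 4 maternal endometrium markers 2 were counted, with a summed level of 0 to 2.44, 0.333 to 11.0 and 3.2 to 12.1 CPM on Days 8, 10 and 12, within which the epithelial mucin MUC1 averaged 0.214, 2.26 and 6.01 CPM. Of 3 red cell markers 2 were counted, with a summed level of 0.0528 to 1.32, 0.772 to 8.06 and 1.44 to 10.6 CPM, ALAS2 averaging 0.658, 2.51 and 2.71 CPM and HBB 0.0139, 0.905 and 1.69 CPM. These low levels were higher on later days like SLC23A1, and the part of such cells in the SLC23A1 level was not tested.

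Set beside the loss of GULO between Days 8 and 10, the carriers did not share a direction. For every 1000 SLC23A2 counts an embryo held 280 GULO counts at the median on Day 8, 0.994 on Day 10 and 1.23 on Day 12. In the same embryos SLC23A1 gave 0.959, 12.7 and 27.6 counts per 1000 SLC23A2 counts at the median. Between Days 8 and 10, GULO and SLC23A2 were both lower while SLC23A1 was higher, and between Days 10 and 12 both carriers were higher at the mean while GULO remained low.

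**Figure D2:**
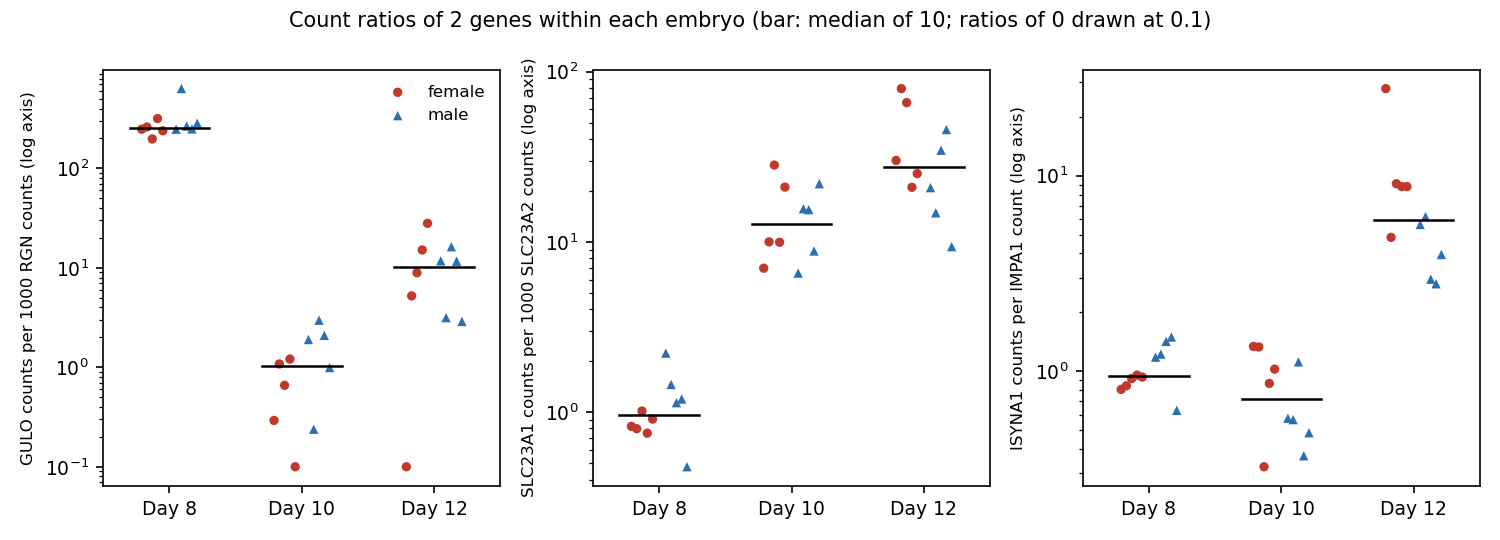
Ratios of the counts of 2 genes within each of 30 embryos by day (log axes), with circles for female and triangles for male embryos, a bar at the median of 10, and ratios of 0 drawn at 0.1. Median GULO counts per 1000 RGN counts were 255, 1.04 and 10.3, SLC23A1 counts per 1000 SLC23A2 counts 0.959, 12.7 and 27.6, and ISYNA1 counts per IMPA1 count 0.944, 0.72 and 5.9 on Days 8, 10 and 12.

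The inositol genes each followed a course of their own. ISYNA1, the synthase, was higher on later days. It ran from 63.1 through 84.7 to 152 CPM on Day 8, from 96.0 through 235 to 287 CPM on Day 10 and from 169 through 361 to 783 CPM on Day 12. Neighbouring days overlapped, while all Day 12 embryos were above all Day 8 embryos, with a log2 fold change of 2.04 (SE 0.25). The step to Day 10 was 1.21 (SE 0.25) and the step from Day 10 to Day 12 was 0.83 (SE 0.24).

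IMPA1, the phosphatase that follows ISYNA1, peaked on Day 10. It was measured at 72.3, 80.5 and 127 CPM (lowest, median and highest) on Day 8, 111, 330 and 440 CPM on Day 10, and 28.1, 59.2 and 70.1 CPM on Day 12. A single Day 10 embryo, the female d10_f_433 with 111 CPM, fell within the Day 8 range, and every Day 12 embryo was below every earlier one. The log2 fold change was 1.81 (SE 0.21) to Day 10 and -2.51 (SE 0.22) from Day 10 to Day 12. There were 0.944, 0.72 and 5.9 ISYNA1 counts per IMPA1 count at the median on Days 8, 10 and 12, and the Day 12 range of 2.8 to 27.9 lay above the ranges of both other days, 0.63 to 1.5 and 0.324 to 1.34.

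MIOX was present on Days 8 and 10 and nearly absent on Day 12. It ran from 9.03 through 15.5 to 24.1 CPM on Day 8 and from 1.77 through 13.7 to 31.0 CPM on Day 10, where the male d10_m_453 and the female d10_f_454 (3.91 CPM) were the lowest. On Day 12, 3 counts were found in all, 2 of them in the female d12_f_297, and 8 of 10 embryos had no count. The days before Day 12 overlapped and differed by a log2 fold change of -0.07 (SE 0.3). Over the pooled counts, MIOX was 1090-fold higher on Day 10 than on Day 12, with an exact 95% interval of 372 to 5290 that covers counting error only. MIOX and GULO thus dropped to few counts at different times, GULO between Days 8 and 10 and MIOX between Days 10 and 12.

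**Figure D3:**
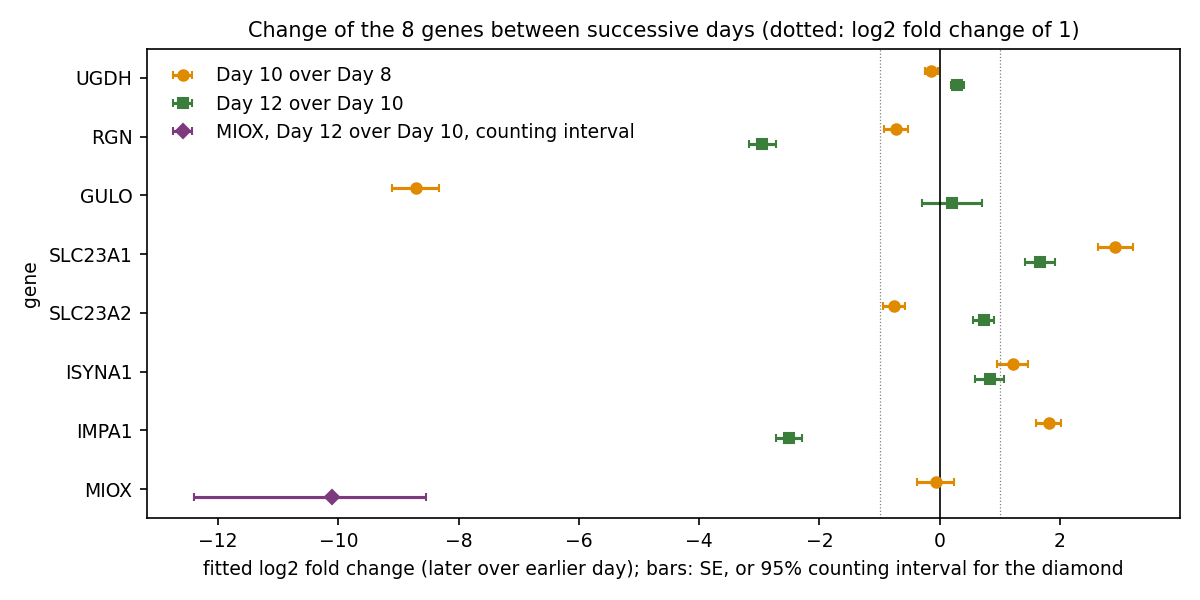
Fitted log2 fold change of the 8 genes from Day 8 to Day 10 (circles) and from Day 10 to Day 12 (squares) with SE bars, and the pooled count ratio of MIOX from Day 10 to Day 12 (diamond) with its exact 95% counting interval. Dotted lines mark log2 fold changes of 1 in either direction. GULO fell by 8.71 in the first interval, RGN and IMPA1 fell by 2.95 and 2.51 in the second, and SLC23A1 lay above 1 in both.

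Calls required a log2 fold change beyond 1 together with an FDR below 0.001. From Day 8 to Day 10, 4 of the 8 genes were called, against 14.1% of all genes. Of these, 3 were called higher (SLC23A1, ISYNA1 and IMPA1) against 9.88% of all genes, and 1 lower (GULO) against 4.2%, while 3 had embryos that did not overlap against 22.0%. From Day 10 to Day 12, again 4 were called, against 23.3%, with 1 higher (SLC23A1) against 14.9% and 3 lower (RGN, IMPA1 and MIOX) against 8.39%, while 3 did not overlap against 16.6%. Between Days 8 and 12, 5 were called, against 32.5%, with 2 higher (SLC23A1 and ISYNA1) against 22.0% and 3 lower (GULO, RGN and MIOX) against 10.4%, while 6 did not overlap against 31.7%. The genes were selected on these contrasts, so the counts carry no weight beyond description. Their median log2 fold changes were -0.11, 0.25 and -0.36 for the 3 contrasts, next to 0.03, 0.04 and 0.09 over all genes, and the medians are the same with MIOX at the floor.

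The surrounding pathways were followed in 7 lists of 83 further genes, of which 71 were among the counted genes. The lists were chosen with earlier results of these data known. Most genes named below were picked for the size of their change, so their adjusted p-values are descriptive. From Day 8 to Day 10, 12 of the 71 were called higher and 6 lower, against 9.88% and 4.2% of all genes. From Day 10 to Day 12, 17 were called higher and 13 lower, against 14.9% and 8.39%. The median log2 fold changes of the 71 genes were 0.17 and 0.05. The same shares apply to the counts of each list below. In lists this small, counts near those shares, or of none, carry no weight beyond description.

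Of 5 genes of the synthesis route, 3 were called lower on Day 10 and none higher, against 4.2% and 9.88% of all genes. They were PGM1, which interconverts glucose phosphates, PGM2, a phosphopentomutase and phosphoglucomutase, and AKR1A1, the reductase that turns glucuronate into gulonate. PGM2 averaged 889 ± 148 CPM on Day 8, 214 ± 40.2 CPM on Day 10 and 76.5 ± 19.5 CPM on Day 12 (SD, n = 10 each), with no overlap between the days, and its log2 fold change to Day 10 was -2.06 (SE 0.14, adjusted p = 2.25e-13). AKR1A1 averaged 80.1 ± 12.6, 25.4 ± 8.65 and 16.2 ± 7.84 CPM, with -1.66 to Day 10 (SE 0.22, adjusted p = 2.41e-07) and again no overlap of Days 8 and 10. For PGM1 the change to Day 10 was -1.49 (SE 0.12, adjusted p = 2.37e-11). UGP2, which makes UDP-glucose, was not called (-0.51, SE 0.15). GUSB, the lysosomal glucuronidase that frees glucuronate, was called higher from Day 10 to Day 12 (1.13, SE 0.19, adjusted p = 8.47e-06).

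Of 8 measured genes that spend or carry UDP-glucuronate, none was called from Day 8 to Day 10, against 14.1% of all genes. From Day 10 to Day 12, 3 were called higher, against 14.9% of all genes, and 5 were not called. The 3 were CHSY1 (1.62, SE 0.17, adjusted p = 8.79e-10) and CHPF (1.04, SE 0.13, adjusted p = 6.11e-08), which build chondroitin chains, and B3GAT3 (1.33, SE 0.15, adjusted p = 1.02e-08), which adds the linker glucuronate. Of the 3 genes measured that break glucuronate down to pentose, CRYL1, the gulonate dehydrogenase, was called higher on Day 10 (2.78, SE 0.26, adjusted p = 2.78e-10) and lower on Day 12 (-1.26, SE 0.24, adjusted p = 3.93e-05). CRYL1 takes the same substrate as the lactonase step before GULO, and its level was low throughout, at 0.506 ± 0.139, 3.51 ± 1.43 and 1.45 ± 0.582 CPM.

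Among carriers of oxidised ascorbate (dehydroascorbate), SLC2A3 was called higher and SLC2A8 lower in the second interval. SLC2A3 averaged 670 ± 142, 943 ± 68.0 and 1940 ± 664 CPM on Days 8, 10 and 12 (SD, n = 10 each), and changed by 1.04 from Day 10 to Day 12 (SE 0.15, adjusted p = 4.56e-07). SLC2A8 averaged 44.8 ± 8.37, 85.4 ± 37.6 and 21.2 ± 8.79 CPM and changed by -2.02 (SE 0.21, adjusted p = 1.45e-09). For SLC2A1 the changes were 0.22 (SE 0.13) and 0.05 (SE 0.13), neither of them called. These carriers also take glucose.

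Enzymes that recycle ascorbate and the dehydroascorbate carriers form a list of 11 measured genes. Of these, 1 was called higher and 1 lower to Day 10, against 9.88% and 4.2% of all genes. From Day 10 to Day 12, 5 were called higher and 3 lower, against 14.9% and 8.39%. Glutathione reductase GSR rose from 13.7 ± 1.84 to 57.1 ± 15.1 CPM, a change of 2.06 on the log2 scale (SE 0.13, adjusted p = 1.96e-14), and the glutaredoxin GLRX from 139 ± 55.8 to 451 ± 128 CPM (1.7, SE 0.21, adjusted p = 2.3e-08), in both cases without overlap. CYBRD1, an ascorbate-dependent ferric reductase of the membrane, fell to Day 10 (-1.07, SE 0.21, adjusted p = 8.32e-05) and rose to Day 12 (1.92, SE 0.22, adjusted p = 4.74e-09). CYB5A, a cytochrome b5, averaged 434 ± 23.0, 1220 ± 340 and 321 ± 37.7 CPM on Days 8, 10 and 12. It was the 1 gene of the list called higher to Day 10 (1.5, SE 0.11, adjusted p = 2.71e-12). From Day 10 to Day 12 it fell (-1.93, SE 0.11, adjusted p = 2.75e-15).

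Enzymes that need ascorbate as a cofactor included 18 measured genes. To Day 10, 3 were called higher and 2 lower, against 9.88% and 4.2% of all genes. From Day 10 to Day 12, 6 were called higher and 2 lower, against 14.9% and 8.39%. BBOX1, the last enzyme of carnitine synthesis, averaged 0.195 ± 0.12 CPM on Day 8 and 7.74 ± 3.48 CPM on Day 10 without overlap (log2 fold change 5.27, SE 0.36, adjusted p = 3.21e-13), in the interval in which GULO fell. Its Day 8 values ran from 0.0395 to 0.469 CPM, near the floor of 3 counts (0.0823 to 0.194 CPM on that day). The size of this change therefore rests on few Day 8 counts. The collagen prolyl 3-hydroxylase P3H1 rose from 6.66 ± 2.1 to 63.0 ± 27.5 CPM between Days 10 and 12 (a change of 3.24, SE 0.24, adjusted p = 4.65e-13), and its relative P3H2 fell (-2.21, SE 0.4, adjusted p = 2.02e-05). The DNA demethylation enzyme TET3 rose from 9.76 ± 3.86 to 51.9 ± 15.1 CPM (2.41, SE 0.19, adjusted p = 2.91e-12). Over the same interval its relative TET2 fell (-1.06, SE 0.13, adjusted p = 4.21e-08) and TET1 was not called (-0.24, SE 0.25). TET1 had been called higher to Day 10 (1.47, SE 0.26, adjusted p = 1.96e-05). The collagen lysyl hydroxylase PLOD1 (-1.56, SE 0.15, adjusted p = 5.25e-10) and the oxygen sensor EGLN1 (-1.15, SE 0.13, adjusted p = 9.88e-09) fell to Day 10. PLOD1 was called higher again from Day 10 to Day 12 (1.45, SE 0.15, adjusted p = 9e-10), averaging 57.4, 19.5 and 53.2 CPM over the days. EGLN1 averaged 88.2, 39.7 and 30.8 CPM.

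**Figure D4:**
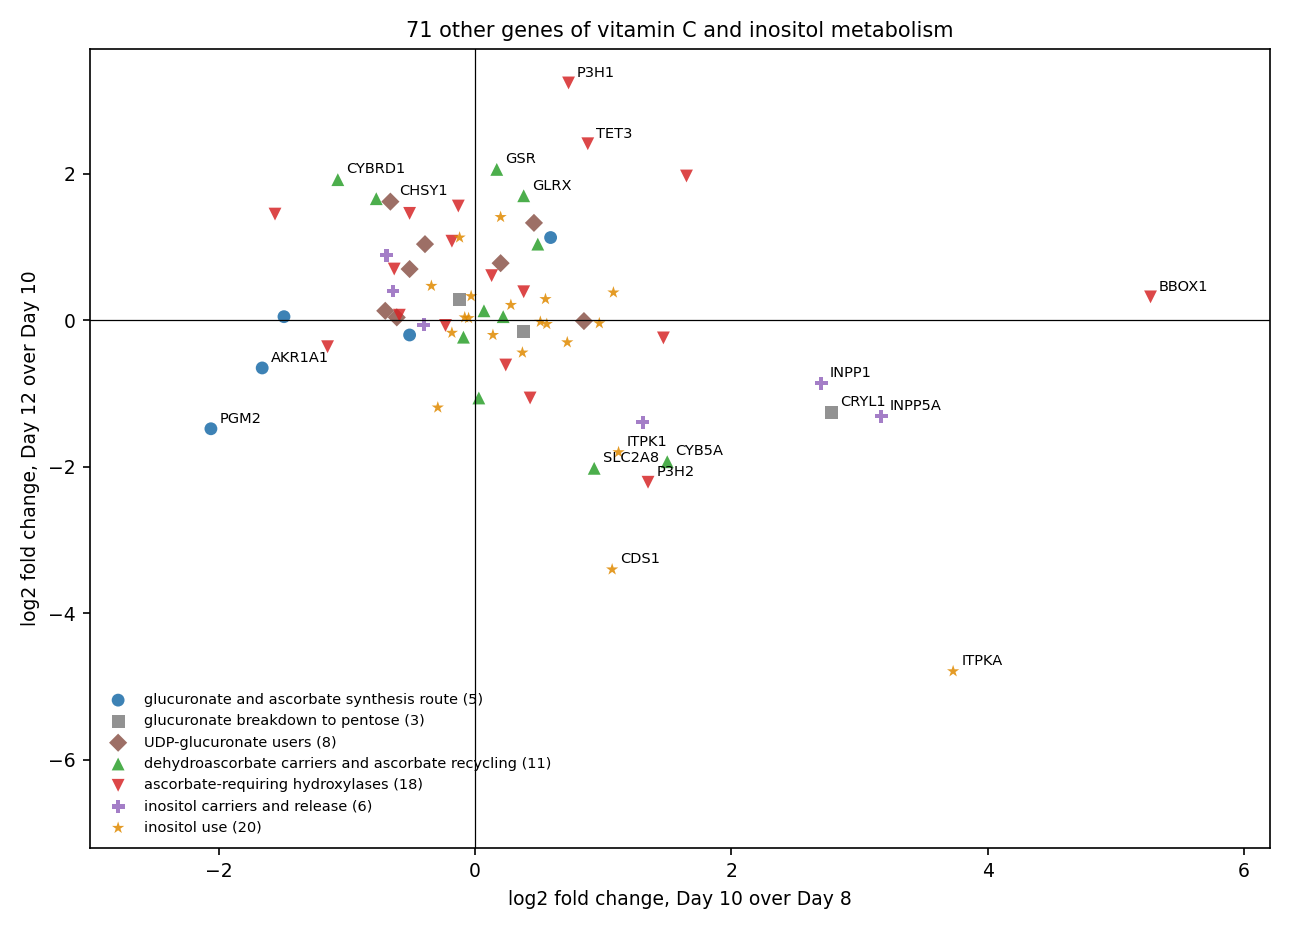
Log2 fold change from Day 8 to Day 10 (x axis) against that from Day 10 to Day 12 (y axis) for the 71 measured genes of the 7 pathway lists, 1 point per gene and 1 symbol per list. BBOX1 lay far to the right at 5.27, ITPKA combined 3.73 with -4.79, PGM2 and AKR1A1 lay lower left, and P3H1 was highest at 3.24. Both axes use the Day 10 embryos, so a high or low Day 10 level moves a gene along the falling diagonal.

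Of 6 measured genes for inositol carriers and release, 3 were called higher on Day 10 and none lower, against 9.88% and 4.2% of all genes. From Day 10 to Day 12, none was called higher and 2 lower, against 14.9% and 8.39%. INPP5A and INPP1, phosphatases that dephosphorylate inositol phosphates, changed to Day 10 by 3.17 (SE 0.19, adjusted p = 1.93e-14) and 2.7 (SE 0.12, adjusted p = 4.37e-17). SLC2A13, the proton-coupled inositol carrier, averaged 45.2 ± 8.77, 112 ± 33.2 and 42.6 ± 17.7 CPM, with no overlap between Day 10 and either other day (1.31, SE 0.2, adjusted p = 2.1e-06, then -1.39, SE 0.2, adjusted p = 4.82e-07). The sodium-coupled inositol carrier SLC5A3 averaged 18.3 ± 3.66, 13.9 ± 3.1 and 13.3 ± 5.75 CPM and was not called.

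Of 20 genes that use inositol in lipid and phosphate signalling, 4 were called higher and none lower to Day 10, against 9.88% and 4.2% of all genes. From Day 10 to Day 12, 2 were called higher and 4 lower, against 14.9% and 8.39%. ITPKA, a kinase of inositol trisphosphate, averaged 19.4 ± 4.24, 258 ± 84.5 and 9.46 ± 4.94 CPM, with changes of 3.73 (SE 0.25, adjusted p = 2.25e-13) and -4.79 (SE 0.26, adjusted p = 5.57e-16). CDS1, which makes the lipid partner of inositol, averaged 148 ± 19.0, 311 ± 59.9 and 29.4 ± 9.44 CPM and fell by 3.4 on the log2 scale in the second interval (SE 0.16, adjusted p = 1.22e-17). ITPK1, a further inositol phosphate kinase, averaged 90.4, 197 and 56.7 CPM. It rose to Day 10 (1.12, SE 0.14, adjusted p = 5.3e-08) and changed by -1.8 from Day 10 to Day 12 (SE 0.14, adjusted p = 1.9e-12). ITPKC (1.41, SE 0.14, adjusted p = 6.51e-10) and the lipid kinase PI4KB (1.13, SE 0.085, adjusted p = 8.11e-13) rose over the same interval.

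The summed level of 7 trophectoderm markers had the same high point as IMPA1, SLC2A13, INPP1 and ITPKA. It ran from 20600 to 25200 CPM on Day 8, from 32700 to 50100 CPM on Day 10 and from 8570 to 26500 CPM on Day 12, almost wholly from KRT8 and KRT18. GATA2 averaged 460, 327 and 425 CPM, GATA3 138, 121 and 285 CPM, TFAP2C 110, 90.9 and 91.0 CPM and TEAD4 47.7, 37.0 and 16.2 CPM. All of these were lower at the mean on Day 10 than on Day 8, none being called. CDX2, like the keratins, was highest on Day 10 (170, 214 and 79.9 CPM). The summed level of 7 hypoblast markers ran from 752 to 1630, from 770 to 1470 and from 1350 to 6680 CPM. Most of it was APOA1, averaging 637, 938 and 2550 CPM. GATA6 went the other way, averaging 142, 55.5 and 44.5 CPM. GATA4, SOX17, PDGFRA, HNF4A and FOXA2 were lowest on Day 10 and highest on Day 12 at the mean. The summed level of 5 epiblast markers ran from 132 to 207, from 130 to 831 and from 325 to 1230 CPM, driven by DPPA5 on the later days. The part of these cell types in the levels above was not tested.

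Genes with the most similar course over the 30 embryos were found by Pearson's r of log2 CPM, which mainly reflects the differences between days. Like GULO were KLHL5 (r = 0.984), LIPH (0.97), CASS4 (0.97), KRBA1 (0.969) and NUDT4 (0.964), and LIPH, a phospholipase, averaged 13.2, 0.077 and 0.176 CPM on Days 8, 10 and 12. Like MIOX were FYB (r = 0.985), PHOSPHO1 (0.98), SNX18 (0.98), LOC102158609 (0.977) and ENPP3 (0.974), and PHOSPHO1 averaged 482, 421 and 0.952 CPM. Like RGN were WNT3A (r = 0.984), CLN8 (0.975) and TMEM86A (0.972), and like SLC23A1 were WNT4 (0.967), MAPK13 (0.966) and BICDL2 (0.965). IMPA1 was most like MTMR2 (0.935), TSTD2 (0.927) and GRAMD1C (0.923), and ISYNA1 most like SLC9A3 (0.941), ACSF2 (0.935) and PTH1R (0.925). For SLC23A2 the nearest genes were SLC22A5 (0.894), XXYLT1 (0.869) and RECK (0.868), and for UGDH they were SEPT7 (0.837), C2H5orf24 (0.823) and TAF13 (0.774).

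Sex was not used to choose the genes and was tested within each day. None of 20 tests of the 8 genes passed an FDR of 0.05 by the edgeR quasi-likelihood test, where 0.658%, 0.223% and 0.123% of all genes passed on Days 8, 10 and 12. By the same test 4 of the 20 had an unadjusted p under 0.05, 1 on Day 8, 1 on Day 10 and 2 of 6 on Day 12, beside 4.59%, 2.36% and 22.7% of all genes. DESeq2 passed none of the 20, beside 1.13%, 0.454% and 1.37% of all genes, and the robust GLM of edgeR, which is the method of the study, passed 1, beside 1.37%, 0.36% and 0.827%. Female and male embryos overlapped for each of the 8 genes on every day. The share of all genes with such overlap was not counted, so this is description only. GULO on Days 10 and 12, SLC23A1 on Day 8 and MIOX on Day 12 were not tested, being left out of the count table of that day.

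IMPA1 was the gene that passed by the robust GLM. On Day 10 the female embryos had 111, 171, 189, 259 and 402 CPM and the male embryos 257, 421, 422, 431 and 440 CPM. Male embryos were thus mostly higher, with the female d10_f_336 and the male d10_m_333 on the side of the other sex. The log2 fold change, female over male, was -0.81 (95% interval -1.47 to -0.15) with an adjusted p of 1.0 by the quasi-likelihood test, and -0.96 with an adjusted p of 0.0173 by the robust GLM. On Day 12 it was -0.54 (95% interval -0.98 to -0.11, adjusted p = 0.198), and on Day 8 it was 0.0 (-0.34 to 0.34).

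RGN is X-linked. Its log2 fold change, female over male, was 0.19 (95% interval -0.13 to 0.51) on Day 8, 0.25 (-0.32 to 0.83) on Day 10 and 0.75 (0.09 to 1.41, adjusted p = 0.199) on Day 12. On Day 12 the female embryos had 18.1, 18.9, 32.7, 46.0 and 48.2 CPM and the male embryos 13.4, 17.6, 20.2, 22.4 and 25.9 CPM. The 3 highest embryos of that day were female, and the other two female embryos lay among the male embryos. MIOX on Day 8 differed by 0.49 (0.02 to 0.96, adjusted p = 0.999). For GULO on Day 8 the interval ran from -1.09 to 0.52, so that neither direction was resolved.

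**Figure D5:**
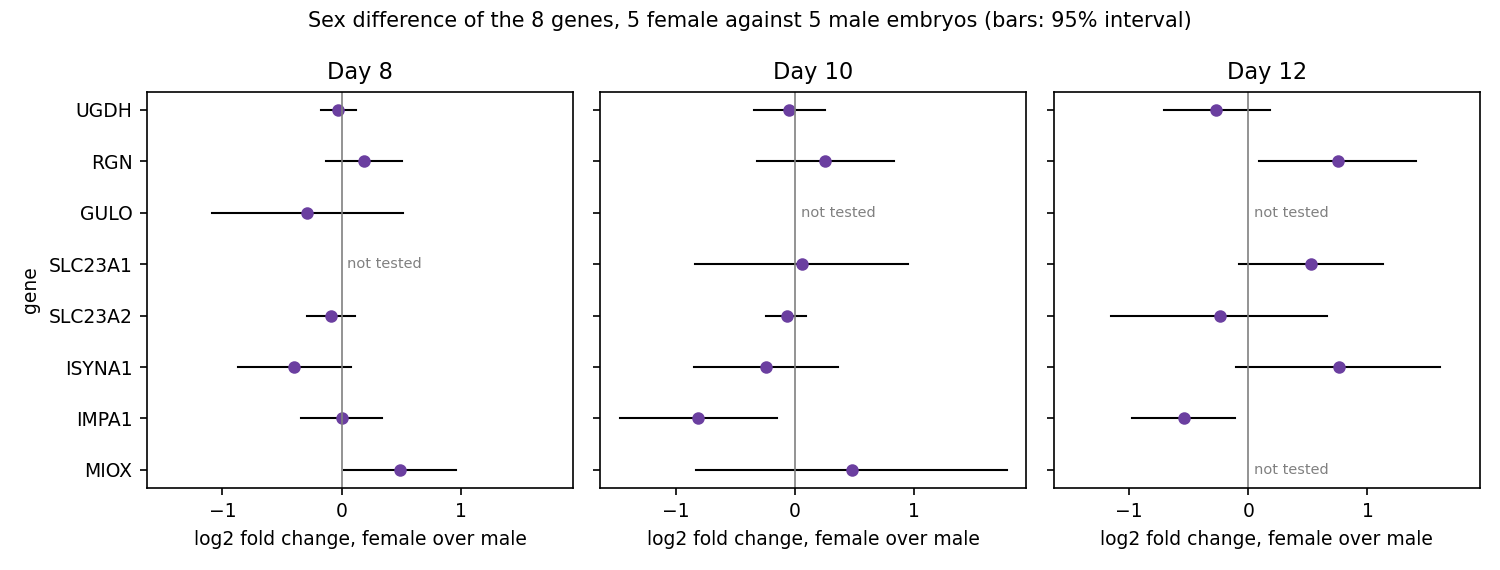
Log2 fold change, female over male, of the 8 genes on each day, with 95% intervals from 5 female and 5 male embryos (edgeR quasi-likelihood fit). Intervals of IMPA1 on Days 10 and 12, RGN on Day 12 and MIOX on Day 8 did not include 0 before adjustment, and no gene passed an FDR of 0.05 in this fit.

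Whether the sex difference itself changed between days was tested with an interaction term. None of 24 tests passed an FDR of 0.05 by any of the 3 tools. For Day 10 against Day 8, Day 12 against Day 10 and Day 12 against Day 8, the share of all genes that passed was 0.0% in each by the quasi-likelihood test, 0.0382%, 1.91% and 4.21% by the robust GLM and 0.00763%, 0.0% and 2.18% by DESeq2. An unadjusted p under 0.05 was found in 4 of the 24 by the quasi-likelihood test (1, 1 and 2 of 8 in the 3 contrasts), beside 0.763%, 18.9% and 21.8% of all genes. The sex difference of ISYNA1 was 1.12 higher on Day 12 than on Day 8 (SE 0.46, adjusted p = 0.167), the female and male means on Day 12 being 468 ± 228 and 283 ± 113 CPM (SD, n = 5 each). That of SLC23A1 was 1.14 higher (SE 0.55, adjusted p = 0.22), and that of IMPA1 was -0.8 on Day 10 against Day 8 (SE 0.34, adjusted p = 1.0).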

How the data were processed

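RNA-seq libraries (TruSeq Stranded mRNA, 100-base single reads) of 30 single embryos were analysed. Genome and gene models used by the authors were those of NCBI for Sscrofa11.1. Before alignment, run in Galaxy, Trim Galore had been applied and reads shortened by 3 leading bases, and low genes had been left out of the tables. The aligner, counting tool, strand setting and cutoff are not given in the sources used here. The deposited tables hold unnormalized counts by NCBI gene number, with 1 table of all embryos (13103 genes) and 1 per day (11405, 11675 and 12220 genes for Days 8, 10 and 12). GULO was left out of the Day 10 and Day 12 tables, SLC23A1 of the Day 8 table and MIOX of the Day 12 table. All 13103 identifiers were matched to symbols, and positions came from the RefSeq gene table of Sscrofa11.1.

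Counts were tested in R 4.3.3 with edgeR 4.0.16 (quasi-likelihood F test, robust, TMM factors, Benjamini-Hochberg adjustment over all genes of the table). Days were compared in 1 fit of 30 embryos (FDR under 0.001, log2 fold change beyond 1), the sexes within the table of their day, female over male (FDR under 0.05), and the interaction in 1 fit of 6 groups. The SE is the size of the log2 fold change over the square root of F. Alternatives were the robust GLM of edgeR, DESeq2 1.42.0, RLE factors, library size alone, genes with at least 10 counts in at least 5 embryos, sex as a term, the table of all embryos for the sexes, and each of 30 embryos left out. Log2 CPM for similarity between genes had a prior count of 2. The scripts were tested on simulated data. Over 60 pairs of embryos of 1 day and sex, the lowest chi-square per degree of freedom between libraries was 7.64, so none was a repeat of another. Python 3.11.15 with pandas 2.3.3, scipy 1.17.1 and matplotlib 3.10.9 was used for summaries.

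The 8 genes and the 7 pathway lists were chosen with earlier results of these data known. Named are the 8 genes, in each list up to 3 genes with the largest rise and 3 with the largest fall among those called between successive days, the carriers of dehydroascorbate and inositol, and the 5 (GULO, MIOX) or 3 most similar genes. UGP2, TET1 and TET2 were named in addition, after their values were seen.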

Additional observations from a re-analysis of the deposited data

Results flagged for a closer look

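Among 68 sets of 5 or 10 embryos of 1 gene and day, 7 held an embryo set apart from the others by a gap larger than Dixon's 95% limit, and chance alone sets apart about 1 in 20. GULO reached 245 CPM in the Day 8 male d08_m_111, where the next embryo had 118 CPM and the next male 92.9 CPM, and this embryo was apart both among the males and among all Day 8 embryos. The Day 8 female d08_f_124 was apart in both inositol synthesis genes, with 116 CPM of ISYNA1 (next female 73.6) and 127 CPM of IMPA1 (next female 88.1), and it had the lowest GULO of its day, 59.2 CPM. RGN was 338 CPM in the Day 10 female d10_f_433 (next female 203). SLC23A1 was 14.6 CPM in the Day 12 female d12_f_289 (next female 9.77). IMPA1 was 257 CPM in the Day 10 male d10_m_333, below the next male at 421 CPM.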

How the results depend on the processing

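Fold changes of the 8 genes between days kept their side of the threshold under every alternative except ISYNA1 with library size alone, and every called change kept its direction. Changes near 0 turned sign, SLC23A2 between Days 8 and 12 running from -0.16 to 0.08 with 1 embryo left out and being 0.02 with library size alone, and MIOX between Days 8 and 10 running from -0.25 to 0.06 with 1 embryo left out. That scaling moved the median of all genes by -0.15 from Day 8 to Day 10 and by 0.21 from Day 10 to Day 12, against 0.02 in both with TMM, and ISYNA1 then was not called on Day 10 (1.01) and was called on Day 12 (1.07), so that 2 genes in place of 1 were called higher from Day 10 to Day 12. With 1 embryo left out, the fitted change of MIOX ran from -10.44 to -9.47 against Day 10 and from -10.52 to -9.59 against Day 8, the lowest values being without d12_f_297, which holds 2 of the 3 Day 12 counts. The difference of IMPA1 between the sexes on Day 10 passed with the robust GLM only (-0.96), its adjusted p running from 0.0173 to 1.0 over 16 alternatives. Counts of pathway genes called stayed within 1.5 times under all alternatives. Mean SLC23A2 on Day 10 was 176 CPM with library size alone. With Spearman's rho in place of Pearson's r, between 0 and 2 of the most similar genes of each of the 8 were shared, so those names depend on the measure. No paired analysis was possible because the labels give the embryos no numbers shared between groups. The paper states that each stage included a female and a male embryo of the same sow. The sow is not in the labels, so the tests of sex ignore this pairing. At these depths levels under 0.434 CPM, among them most GULO values after Day 8 and most SLC23A1 values on Day 8, rest on few counts.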

Other observations

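Within Day 10, the female d10_f_433 had the highest RGN (338 CPM) together with the lowest ISYNA1 (96.0 CPM) and the lowest IMPA1 (111 CPM) of its day, and the male d10_m_435 had the second highest RGN (305 CPM) and the highest GULO (0.639 CPM, 14 counts). Within Day 12, the male d12_m_275 had the highest UGDH (173 CPM) and the highest SLC23A2 (571 CPM), while the female d12_f_245, the smallest library, had the highest ISYNA1 (783 CPM) and the lowest IMPA1 (28.1 CPM), or 27.9 ISYNA1 counts per IMPA1 count. These are single embryos picked for their values, and no test was made on them.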
